A study of Homo sapiens with 6 samples.

Results

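The E2F1 ChIP-seq peaks of MDA-MB-231, a cell line from a human breast cancer of the triple-negative type, were compared between cultures left untreated and cultures exposed for 72 h to DMSO, the solvent in which drugs are dissolved. All peaks of both lists were used, 1056 from untreated cells and 15703 from DMSO cells, which is 16759 of the 290675 peaks in the 5 peak lists of the series. Both libraries were made from the same line with the same E2F1 antibody on sonicated chromatin, and neither group carried a knockdown or an inhibitor. The study as a whole asked how EZH2, a histone methyltransferase, acts with E2F1 in these cells, and its other lists cover E2F1 under the EZH2 inhibitor GSK126 and the histone mark H3K27me3. Each condition had 1 library, so a difference between untreated and DMSO cells cannot be told apart from a difference between these libraries. All intervals below are 95% intervals that cover counting error only, exact Clopper-Pearson for shares (a share of 0 is given the limit of 3 counts instead), and no test between the conditions could be made.

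E2F1 is a transcription factor that binds DNA together with a DP partner and is held inactive by the retinoblastoma protein until cyclin-dependent kinases phosphorylate that protein late in G1. Free E2F1 then activates genes for DNA replication, nucleotide synthesis and the later steps of division. It is also known to bind promoters of DNA repair, checkpoint and apoptosis genes, and promoters of many other active genes in lines with high E2F levels. ChIP peaks show where the protein was crosslinked and do not measure expression, so marker genes of the cell type could not be checked here.

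The untreated library was the shallower. Depth, read as the genome-wide background divided by the shortest peak width in the list, was 2.12 times as high in DMSO as in untreated cells, and the background itself, the fragments that chance puts over a base, was 0.668 in untreated and 1.82 in DMSO cells. Fragments at each summit were therefore divided by that background, and the result is called scaled fragments. An untreated peak had a median of 19 fragments at its summit (7 to 98) and a DMSO peak a median of 17 (9 to 398), which is 28.5 and 9.35 scaled fragments. The weakest peak that could be called over the genome-wide background needed 10.5 scaled fragments in untreated and 4.95 in DMSO cells, and 9490 DMSO peaks (60.4%) lay below the untreated limit. The lists were also compared at equal rank, with the 1056 strongest peaks of each by −log10 p.

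The sites that carry the comparison are shown with the match to the E2F motif nearest to the summit in capitals (the letters TTCCCGC, or with TTCGCGC as a variant, or with TTGCCGC as a variant, or with TTGGCGC as a variant, on either strand), read 5′ to 3′ from hg38 on the strand of the match. The first group holds promoters among the strongest in the untreated list, those of the sliding clamp PCNA, the replicative helicase subunit MCM3, the CDK inhibitor CDKN2D, thymidylate synthase TYMS, the phosphatase CDC25A and the transcription factor E2F3. The second group holds promoters with strong DMSO peaks and no untreated peak, those of the nucleosome-binding protein HMGN2, the cohesin regulator CDCA5 (sororin), the histone gene H2BC11, the chromatin assembly factor CHAF1A and the DNA polymerase alpha subunit POLA2. Only promoters with a match could be shown, so its presence in both groups follows from the choice. Among promoters named below, those of EZH2 and H2AX were strong in the untreated list without a match within 100 bp of the summit. Those of UBE2S and SPAG5 had strong DMSO peaks, no untreated peak and no match.
PCNA (chr20:5119364-5119418, plus strand): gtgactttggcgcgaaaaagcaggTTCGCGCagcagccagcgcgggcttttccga
MCM3 (chr6:52284885-52284939, minus strand): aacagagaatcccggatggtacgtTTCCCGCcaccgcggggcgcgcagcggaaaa
CDKN2D (chr19:10569257-10569311, minus strand): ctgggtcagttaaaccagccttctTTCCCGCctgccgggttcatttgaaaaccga
TYMS (chr18:658394-658448, minus strand): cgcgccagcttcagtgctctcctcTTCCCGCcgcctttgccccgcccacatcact
CDC25A (chr3:48188427-48188481, plus strand): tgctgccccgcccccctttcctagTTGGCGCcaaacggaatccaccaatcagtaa
E2F3 (chr6:20401844-20401872, plus strand): gcgggaggaccTTGGCGCgtaaaccgtat
HMGN2 (chr1:26472950-26473004, minus strand): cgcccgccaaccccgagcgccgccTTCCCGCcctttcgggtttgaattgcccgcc
CDCA5 (chr11:65084054-65084108, minus strand): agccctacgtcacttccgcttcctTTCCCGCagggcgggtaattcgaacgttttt
H2BC11 (chr6:27131912-27131966, plus strand): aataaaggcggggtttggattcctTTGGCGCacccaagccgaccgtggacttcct
CHAF1A (chr19:4402622-4402650, plus strand): ggtcgccgcggTTCCCGCcaaatacgagc
POLA2 (chr11:65261899-65261927, plus strand): tggctcccggtTTCGCGCatgcgtgcact
The match lay 18 bp from the summit at PCNA, 2 bp at TYMS and at HMGN2, and 61 bp at H2BC11. A match describes these letters and is not evidence of binding by itself. Of windows at the untreated summits 54.5% held a match, against 1.56% of windows 2 kb away from them. Of windows at the TSS (transcription start site) of lowest coordinate of each protein-coding gene, 8.19% did. On the minus strand that TSS is the one furthest downstream, so this share does not stand for main promoters. The SP1/KLF motif (GGGCGGG) was at 51.5% of the untreated summits, 1.99% of the windows 2 kb away and 22.4% of those TSSs. A contrast with windows 2 kb away is therefore not particular to E2F and cannot check the E2F1 label.

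The untreated list was first described as a selection out of the DMSO list. Of the 15703 DMSO peaks, 995 (6.34%) overlapped an untreated peak, and these were almost entirely at promoters: 939 of 6709 DMSO promoter peaks (14.0%, 13.2 to 14.8) against 56 of 8994 away from promoters (0.623%, 0.471 to 0.808). A promoter was the 1 kb on either side of a transcription start site (TSS). The share of DMSO promoter peaks found in the untreated list rose with their strength in DMSO in every step, from 0.433% (5 of 1154) under 10 scaled fragments to 18.4% (218 of 1184) at 20 to 30, 64.8% (215 of 332) at 40 to 60 and 89.3% (184 of 206, 84.3 to 93.2) from 60 upward. Away from promoters none of the 7879 DMSO peaks under 10 scaled fragments was found, which allows a share of up to 0.0381% (3 counts), and 7 of the 12 from 60 upward were (58.3%, 27.7 to 84.8). At 20 to 30 scaled fragments the shares at promoters and away from them had overlapping intervals (18.4%, 16.2 to 20.7, and 16.4%, 10.3 to 24.2). They did not overlap at 10 to 15 (2.02%, 1.46 to 2.74, and 0.252%, 0.0306 to 0.908). At 15 to 20 the shares were 7.11% and 6.98%, with overlapping intervals. From 30 upward the promoter share was the higher in each bin, at 40.3% and 26.8%, 64.8% and 38.9%, and 89.3% and 58.3%. The intervals overlapped in each of these bins too, which is no test of the difference. The bins away from promoters were small, with 41, 18 and 12 peaks. Of the 8994 DMSO peaks away from promoters, 7879 were in the weakest bin.

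**Figure D1:**
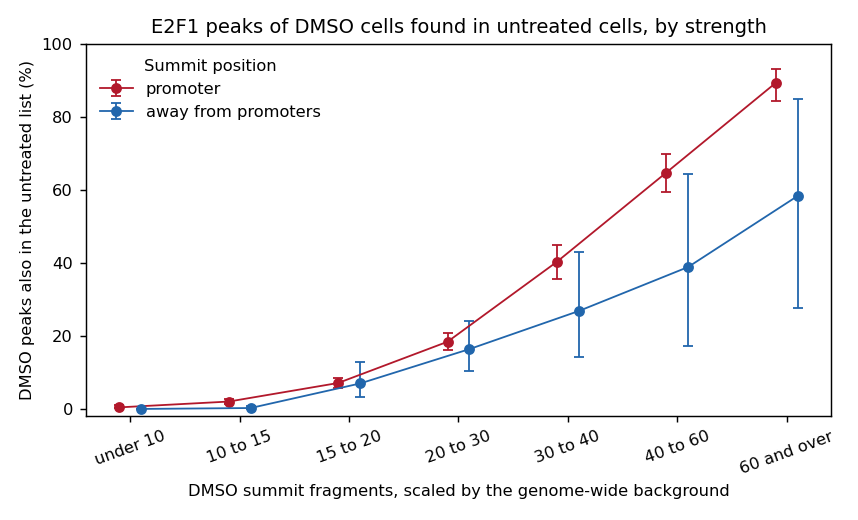
Share of DMSO E2F1 peaks (%) overlapped by an untreated peak, in bins of DMSO scaled summit fragments, for summits within 1 kb of a TSS (red) and elsewhere (blue), with exact 95% intervals. The promoter share rises from 0.433% in the weakest bin to 89.3% in the strongest, and the intervals of both classes overlap in every bin from 15 upward.

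The GSK126 library gave a check on which DMSO peaks recur. All 995 DMSO peaks that were in the untreated list also overlapped a peak under GSK126. Among the DMSO promoter peaks absent from the untreated list, 5376 of 5770 (93.2%, 92.5 to 93.8) overlapped a GSK126 peak, and away from promoters 1014 of 8938 did (11.3%, 10.7 to 12). Absence from the untreated list at a promoter was thus rarely accompanied by absence under GSK126, whose library had 1.96 times the depth of the untreated one.

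Gene functions differed in how much of the DMSO list the untreated list kept. A protein-coding gene was counted as a target when a summit lay no more than 1 kb from any of its TSSs. There were 6697 in DMSO cells (33.5% of 20007 protein-coding genes) and 1168 in untreated cells (5.84%), and 1140 genes were in both, so that the untreated list kept 17% of the DMSO target genes. Over 9 lists of cell-division genes combined (439 genes) it kept 201 of 378 DMSO targets (53.2%, 48.0 to 58.3). Cell-division genes made up 17.3% of the untreated targets (202 of 1168) and 5.64% of the DMSO targets (378 of 6697).

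Checkpoint signalling, the pathway that halts the cycle when DNA is damaged, was kept at 14 of 21 DMSO targets (66.7%), G1/S control at 18 of 31 (58.1%), DNA replication at 33 of 58 (56.9%) and mitosis and spindle at 44 of 83 (53.0%). Deoxynucleotide synthesis was kept at 9 of 17 (52.9%), DNA repair at 39 of 74 (52.7%), cohesin and condensin at 12 of 25 (48.0%), and chromatin assembly and centrosome genes at 21 of 45 and 14 of 30 (46.7% each). The lower bound of the interval lay above 17% in each of these 9 lists, the lowest being 27.8% for deoxynucleotide synthesis and for cohesin and condensin. Ribosome biogenesis (11 of 29, 37.9%), splicing factors (27 of 75, 36.0%) and nuclear pore and import (15 of 44, 34.1%) were next, again with lower bounds above 17%.

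Other functions were kept near or below the share over all genes. Cytosolic ribosomal proteins had 53 DMSO targets, of which 7 were kept (13.2%, 5.48 to 25.3), mitochondrial ribosomal proteins 5 of 32 (15.6%) and oxidative phosphorylation 2 of 30 (6.67%, 0.818 to 22.1). Zinc finger (ZNF) genes were kept at 22 of 200 (11%, 7.02 to 16.2) and solute carriers at 12 of 119 (10.1%, 5.32 to 17). Apoptosis genes, a class in which E2F1 is known for its pro-death targets, were kept at 6 of 25 (24.0%, 9.36 to 45.1), and stress and immediate-early genes at 4 of 25 (16%). Olfactory receptors, which act mainly in the nose, had 7 DMSO targets of 400 genes and no untreated one, which allows a share of up to 42.9% of the 7, and HOX genes had no target in either list.

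**Figure D2:**
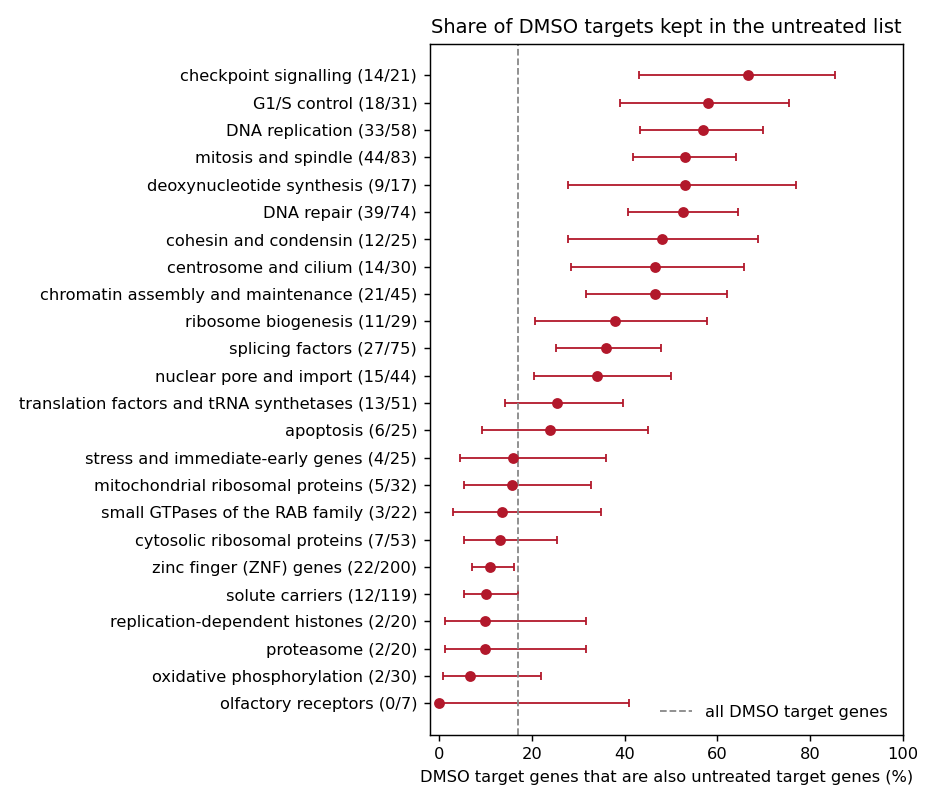
Share of the DMSO target genes of each gene list that are also untreated target genes (%), with exact 95% intervals and the numbers of genes in brackets; the dashed line is the share over all DMSO target genes, 17%. All 9 cell-division lists lie between 46.7% and 66.7%, and zinc finger genes, solute carriers, proteasome and oxidative phosphorylation lie at or below 11%.

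The 9 cell-division lists, which were kept most, also had the highest median DMSO strength of all lists, but the order within them did not follow it. Checkpoint signalling was kept most with a median of 36.8 scaled fragments, and G1/S control had the highest median, 53.3. Outside them, ribosome biogenesis (18.7) was kept more than mitochondrial ribosomal proteins (19.8). The DMSO target genes had a median of 16.5 scaled fragments at their best summit over all genes, 40.4 over cell-division genes and 48.1 over DNA replication genes. Among genes with 60 or more scaled fragments in DMSO, cell-division genes were kept at 73 of 82 (89.0%, 80.2 to 94.9) and all other genes at 161 of 177 (91.0%, 85.7 to 94.7). At 40 to 60 the shares were 82 of 109 (75.2%, 66.0 to 83.0) and 183 of 288 (63.5%, 57.7 to 69.1), and at 20 to 40 they were 37 of 118 (31.4%, 23.1 to 40.5) and 442 of 1707 (25.9%, 23.8 to 28.0). The intervals overlapped in these 3 bins, which is no test of the difference, and at 40 to 60 the cell-division share was the higher. Under 20 scaled fragments the intervals did not overlap, with 9 of 69 cell-division genes (13.0%, 6.14 to 23.3) and 153 of 4147 others (3.69%, 3.14 to 4.31) kept. The bins are wide, and strength within a bin was not matched further.

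At equal rank the untreated list no longer held the larger share. The 1056 strongest DMSO peaks reached 1187 target genes (5.93% of protein-coding genes), close in number to the 1168 of the untreated list, and both sets of peaks had 990 at promoters. Of the untreated peaks, 60.04% overlapped a DMSO peak of that top set, and 730 target genes were in both. The DMSO set held 249 cell-division genes (21.0% of its targets, 18.7 to 23.4) and the untreated list 202 (17.3%, 15.2 to 19.6). With the strongest 500 peaks of each the numbers were 175 of 582 (30.1%) and 140 of 575 (24.3%), and with the strongest 250 they were 105 of 303 (34.7%) and 84 of 295 (28.5%). The share was lower in the untreated list at each of these ranks, with overlapping intervals, so that a difference at equal rank was not resolved.

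DNA replication showed the largest gap of the 25 lists among the 1056 strongest peaks. Of 62 replication genes, 48 (77.4%) were targets of the equally ranked DMSO peaks and 33 (53.2%) of the untreated peaks, with 32 in both. The excess of DMSO was between 7 and 16 genes in all 5 settings of rank and number tried. DNA repair had 49 genes in DMSO and 39 in untreated cells, deoxynucleotide synthesis 14 and 9, and chromatin assembly 27 and 21. Mitosis and spindle had 50 and 44, cohesin and condensin 16 and 12, G1/S control 21 and 18, and centrosome genes 15 and 14. Checkpoint signalling was the exception among these, with 14 genes in DMSO and 15 in untreated cells. Ribosome biogenesis (7 and 11), translation factors and tRNA synthetases (10 and 13), apoptosis (4 and 6) and RAB GTPases of vesicle traffic (2 and 4) had more genes in the untreated list, by at most 4 genes each. Of the 438 untreated target genes outside the DMSO top set, 21 were cell-division genes (4.79%, 2.99 to 7.24), whereas 68 of the 457 DMSO top targets without an untreated peak were (14.9%, 11.7 to 18.5). These 2 intervals, which cover counting error only, did not overlap.

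**Figure D3:**
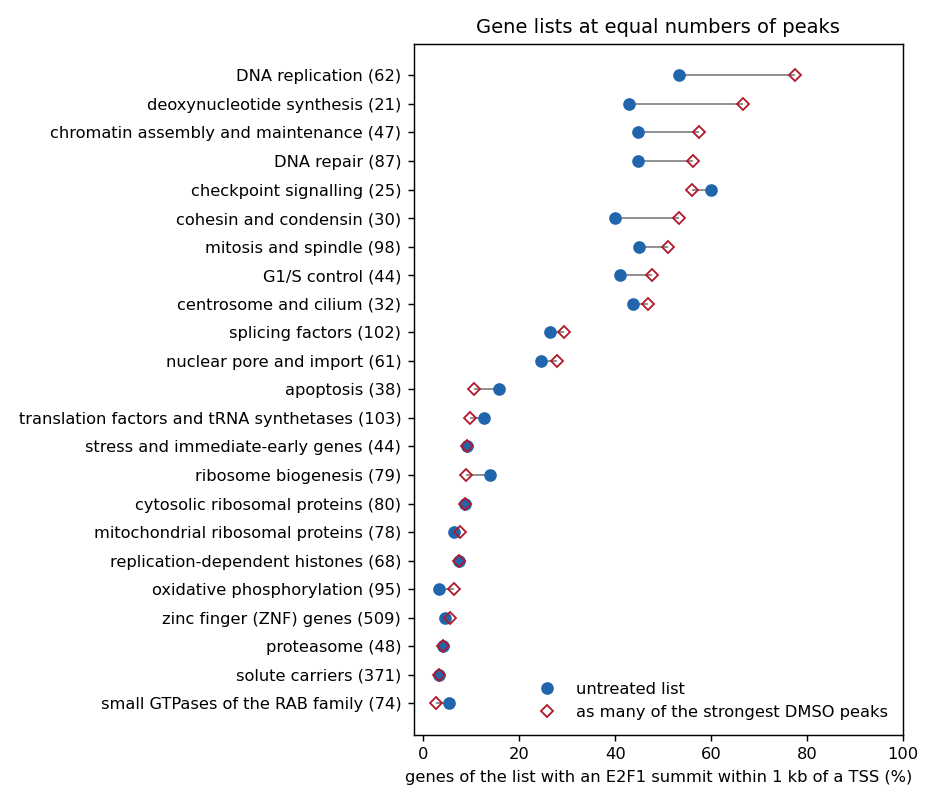
Share of the genes of each list (%; number of genes in brackets) that are targets of the untreated peaks (blue circles) and of as many of the strongest DMSO peaks (red diamonds). DNA replication has the widest gap, 53.2% untreated against 77.4% DMSO, while checkpoint signalling and ribosome biogenesis lie higher in the untreated list.

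Named replication genes showed both outcomes, where a gene without an untreated peak had no untreated summit within 1 kb of a TSS. Single ratios depended on the scale: of 102 named genes with a ratio, 19 changed sign with the authors' fold enrichment and 37 with the local background, that is, with fragments divided by the background recovered at each peak. At PCNA the untreated summit had 70 fragments (105 scaled, rank 9) and the DMSO summit 299 (164 scaled, rank 4). The log2 ratio of scaled fragments, untreated over DMSO, was −0.65 (−1.05 to −0.27), and −0.78 and −0.40 on those 2 scales. MCM3 had 68 fragments in untreated (102 scaled) and 193 in DMSO cells (106 scaled), a log2 ratio of −0.06 (−0.48 to 0.35), and −1.65 and −1.71 on those scales. On the genome-wide scale the interval lay below 0 at PCNA and held 0 at MCM3, and the intervals overlapped each other. CDC6, which loads the helicase, had 56 fragments (83.9 scaled) in untreated and 182 (100 scaled) in DMSO cells, and RFC4 of the clamp loader had 54 (80.9 scaled) and 128 (70.4 scaled). Their log2 ratios were −0.25 (−0.71 to 0.18) and 0.20 (−0.29 to 0.67). With the authors' fold they were 0.02 at CDC6 and −0.28 at RFC4, and with the local background 0.60 and 0.12, so neither gene kept its sign on all scales. No untreated peak was called at POLA2 (152 DMSO fragments, 83.6 scaled, rank 136), at the helicase subunit gene MCM2 (110 fragments, 60.5 scaled, rank 200), at the fork protection gene TIPIN (83 fragments, 45.6 scaled, rank 236) or at the replication initiation gene MCM10 (77 fragments, 42.3 scaled, rank 311).

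Nucleotide synthesis genes were kept at the top and lost below it. TYMS had 45 fragments in untreated (67.4 scaled) and 147 in DMSO cells (80.8 scaled), and the ribonucleotide reductase gene RRM1 had 42 (62.9 scaled) and 143 (78.6 scaled). Thymidine kinase TK1 had 32 (47.9 scaled) and 108 (59.4 scaled). On the genome-wide scale the log2 ratios of all 3 lay between −0.32 and −0.26, near the median over all shared peaks given below. With the authors' fold they were −0.95 at TYMS, −0.52 at RRM1 and −1.23 at TK1, beside a median of −0.46. With the local background they were −0.58, −0.25 and −1.05, beside a median of 0.012. RRM2, of the same function, had −1.63 on the genome-wide scale. The thymidylate kinase gene DTYMK had 62 fragments in DMSO cells (34.1 scaled, rank 786) and no untreated peak.

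In G1/S control 11 of the 12 genes with 60 or more scaled fragments in DMSO cells had an untreated peak, and in checkpoint signalling 5 of 5 did, beside 234 of 259 (90.3%) over all genes at that strength. CDKN2D, rank 1 in both lists, had 93 fragments in untreated (139 scaled) and 398 in DMSO cells (219 scaled), a log2 ratio of −0.65 (−0.99 to −0.32) that was 0.043 with the local background. E2F3 had 70 (105 scaled) and 205 (113 scaled), the pocket protein gene RBL1 62 (92.9 scaled) and 223 (123 scaled), and LIN52 of the DREAM and MuvB complexes 51 (76.4 scaled) and 171 (94.0 scaled). The histone variant gene H2AX, whose product marks DNA breaks, had 76 fragments (114 scaled) and 272 (150 scaled), without an E2F motif near the summit in either list. CLSPN, the claspin adaptor of the checkpoint kinase CHEK1, had 34 (50.9 scaled) and 190 (104 scaled), a log2 ratio of −1.04 (−1.61 to −0.50) that was −0.28 with the authors' fold and turned to 0.76 with the local background, which was 0.698 fragments in untreated and 6.63 in DMSO cells. MYBL2, a driver of late cell-cycle genes, had 116 DMSO fragments (63.8 scaled, rank 158) and no untreated peak, and cyclin E1, CCNE1, had 62 (34.1 scaled, rank 764) and none.

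Mitotic and chromosome structure genes were divided likewise. The promoter shared by MDC1, a mediator of the damage checkpoint, and TUBB, a beta tubulin, had 98 fragments in untreated (147 scaled) and 329 in DMSO cells (181 scaled), and it counts for both lists. The kinetochore gene SPC25 had 64 (95.9 scaled) and 186 (102 scaled), and the kinesin gene KIF15 had 55 (82.4 scaled) and 131 (72.0 scaled), a log2 ratio of 0.19 (−0.29 to 0.66). The condensin II gene NCAPH2 had 44 (65.9 scaled) and 94 (51.7 scaled), a log2 ratio of 0.35 (−0.20 to 0.88), while NCAPG2 of the same complex had 45 (67.4 scaled) and 227 (125 scaled), a log2 ratio of −0.89 (−1.38 to −0.42). This contrast held on the genome-wide scale alone: the ratios of NCAPH2 and NCAPG2 were −0.17 and −0.28 with the authors' fold and 0.14 and 0.26 with the local background. Strong DMSO peaks with no untreated peak stood at SPAG5 of the spindle (126 fragments, rank 222), RACGAP1 of cytokinesis (108, rank 309), CDCA5 (145, rank 123) and the cohesin subunit RAD21 (93, rank 182).

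Chromatin genes included EZH2 itself. Its promoter had 89 fragments in untreated (133 scaled, rank 4) and 298 in DMSO cells (164 scaled, rank 3), with a log2 ratio of −0.30 (−0.66 to 0.05) and no E2F motif within 100 bp of either summit. HMGB2, a high mobility group protein, had 50 (74.9 scaled) and 213 (117 scaled), and the helicase gene HELLS had 46 (68.9 scaled) and 163 (89.6 scaled). Both subunit genes of the CAF-1 assembly factor lacked an untreated peak, CHAF1A with 137 DMSO fragments (75.3 scaled, rank 128) and CHAF1B with 81 (44.5 scaled, rank 358). Replication-dependent histone genes, which are expressed in S phase, were kept at 2 of 20 DMSO targets (10.0%, 1.23 to 31.7), an interval that holds the 17% over all genes and overlaps those of several cell-division lists. H4C1 had 53 fragments in untreated (79.4 scaled) and 138 in DMSO cells (75.9 scaled), whereas H2BC11 had 138 in DMSO cells (75.9 scaled, rank 86) and no untreated peak. The adjacent genes H2AC17 and H3C12 shared an untreated peak of 29 fragments (43.4 scaled). It overlapped a DMSO peak of 203 fragments (112 scaled, rank 59) whose summit lay 1.32 kb from their nearest TSS, outside the 1 kb window, so these genes were not counted as DMSO targets. Histone gene copies resemble each other, so single members are uncertain.

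The strongest untreated promoters outside these lists stood at FAM111A, a protease that protects replication forks, with 84 fragments in untreated (126 scaled) and 285 in DMSO cells (157 scaled), at SMIM13, with 72 (108 scaled, rank 8) and 173 (95.1 scaled, rank 83), and at the promoter of CCHCR1 and TCF19, with 74 (111 scaled) and 299 (164 scaled). The lists outside cell division are represented by their members with high untreated values. The nucleolar gene NOLC1 had 67 fragments in untreated (100 scaled, rank 6) and 244 in DMSO cells (134 scaled, rank 21), the small ribosomal subunit gene RPS29 56 (83.9 scaled) and 196 (108 scaled), and the splicing factor gene SRSF1 55 (82.4 scaled) and 188 (103 scaled). The nucleoporin gene NUP85 had 53 (79.4 scaled) and 127 (69.8 scaled). The proteasome ATPase gene PSMC3 had 49 (73.4 scaled) and 132 (72.6 scaled), a log2 ratio of 0.02 (−0.49 to 0.50). Some of these genes share a promoter with another function: the ATP synthase gene ATP5F1A, one of the 2 kept oxidative phosphorylation genes, has the same peak as HAUS1 of the centrosome (26 and 133 fragments). Among untreated promoter peaks with a protein-coding target, 24.8% reached more than 1 such gene.

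Scaled fragments were then compared at the 1016 untreated peaks that overlapped a DMSO peak (96.2% of the untreated list). Each was paired with the strongest DMSO peak it overlapped. The 1016 peaks met 995 DMSO peaks, so some DMSO peaks were paired with more than 1 untreated peak. Paired summits lay a median of 27 bp and at most 1964 bp apart, and 67.1% lay within 50 bp. The median log2 ratio was −0.30 (−0.34 to −0.27), so that untreated summits were lower on this scale, but it was 0.012 when the background recovered at each peak replaced the genome-wide one, and −0.46 with the authors' fold. The level of untreated against DMSO cells as a whole therefore depended on the scaling, and lists are given relative to the median of all shared peaks. Peaks at cell-division genes (209) differed from that median by −0.25 and peaks at DNA replication genes (34) by −0.38. In untreated cells 25 of the 209, 3 of the 34 and 273 of all 1016 were higher, and with the local background 69, 11 and 514 were. With the authors' fold the differences were −0.33 and −0.50, and with the local background −0.36 and −0.54. The remaining 807 peaks lay 0.06, 0.10 and 0.08 above it on the 3 scales.

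Over genes, 263 of the 1140 in both lists were higher in untreated cells (23.1%), against 23 of 201 cell-division genes. Genes of the weakest DMSO bins could enter this comparison only with a high untreated value, so the positive ratios in the weakest bin follow from the choice of the shared set. At promoters the median ratio went from 0.82 under 10 scaled DMSO fragments to −0.17 at 20 to 30. It was −0.54 at 40 to 60, where 64.8% of peaks were found, and −0.60 from 60 upward, where 89.3% were. The cause of the fall over the stronger bins was not tested. Among genes with 60 or more scaled fragments the median was −0.65 (−0.78 to −0.52) for the 73 cell-division genes and −0.54 (−0.63 to −0.49) for the 161 others. These intervals overlapped, which is no test of the difference, so a lower ratio at cell-division genes of this strength was not tested.

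**Figure D4:**
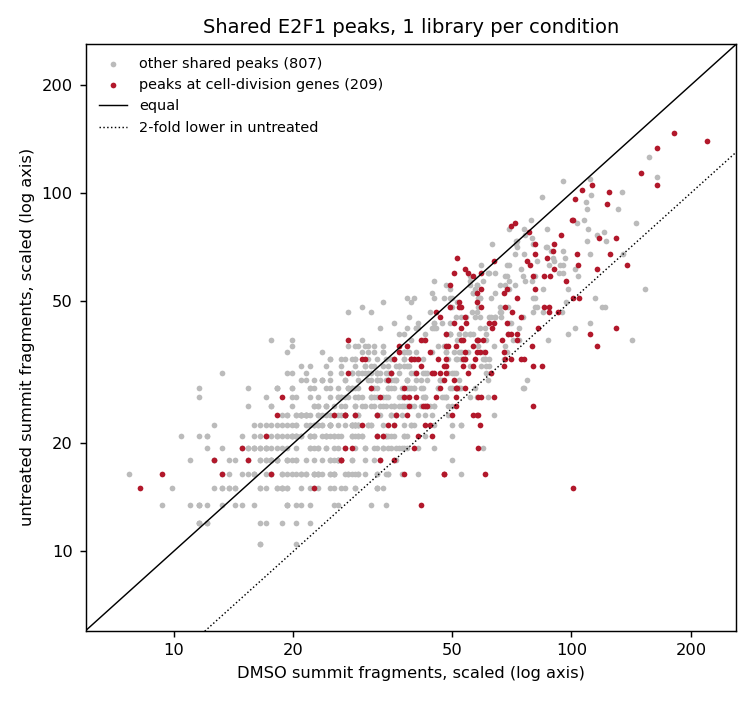
Scaled summit fragments of the 1016 shared peaks in untreated cells (vertical) and DMSO cells (horizontal), both on log axes, with peaks at cell-division genes in red. Most points lie between the line of equality and the 2-fold line below it. In untreated cells 74 peaks are over 2-fold lower and 6 over 2-fold higher, including pairs in which 1 DMSO peak serves for more than 1 untreated peak.

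Single promoters with the lowest and highest ratios were taken from the 445 shared promoter peaks with at least 20 untreated fragments. CDCA4, a cell-division associated gene, had 26 fragments in untreated and 259 in DMSO cells (38.9 and 142 scaled), a log2 ratio of −1.87 (−2.51 to −1.29). RRM2, the ribonucleotide reductase subunit whose level rises in S phase, had 25 and 211 fragments (37.4 and 116 scaled), a log2 ratio of −1.63 (−2.29 to −1.03). The promoter of MRPL51 and the condensin gene NCAPD2 had 28 and 235 (−1.62), that of the kinase gene PIM1 36 and 279 (−1.51), and that of the histone-binding gene RBBP4 with ZBTB8OS 27 and 202 (−1.46). These promoters ranked between 7 and 45 in DMSO cells and between 150 and 361 in untreated cells. At the other end stood PGAP1 of GPI-anchor remodelling, with 21 fragments in untreated and 24 in DMSO cells (31.5 and 13.2 scaled) and a log2 ratio of 1.25 (0.34 to 2.16). The promoter of MMAB and the mevalonate kinase gene MVK had 26 and 32 (1.15), CACYBP 26 and 36 (0.98), NCBP1 with TSTD2 25 and 36 (0.92) and the F-box gene FBXO33 24 and 35 (0.90). Since these promoters were chosen by the ratio, their DMSO ranks follow from the choice. All 10 kept the sign of their ratio with the authors' fold and with the local background.

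Some strong DMSO promoters had no untreated peak. Of the 206 DMSO promoter peaks with 60 or more scaled fragments, 22 had no untreated overlap, and 21 of these were at protein-coding genes. SMG9, a regulator of nonsense-mediated decay, had 179 DMSO fragments (98.4 scaled, rank 80), HMGN2 had 170 (93.5 scaled, rank 29) and UBE2S, a ubiquitin-conjugating enzyme of mitotic exit, had 144 (79.2 scaled, rank 180). The Fanconi anaemia gene FANCL had 136 (74.8 scaled, rank 124). All 21 had a peak under GSK126, with 237 fragments at SMG9 and 298 at HMGN2. If the untreated background at these sites stood in the same ratio to its genome-wide value as in DMSO cells, a peak would have been called from 8 fragments at HMGN2, 14 at SMG9, 15 at UBE2S and 18 at UQCC2, a mitochondrial assembly factor gene. The DMSO level exceeded those limits 7.80, 4.69, 3.52 and 2.86 times, and over the 21 promoters the median excess was 4.08 times. The nearest untreated summit was at least 43 kb away from each of them. Whether the untreated background was higher there, or whether the list was filtered after peak calling, could not be read from the list and was not tested.

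GC content and chromosome were set beside this loss. Over DMSO promoter peaks with 30 or more scaled fragments, the median GC content within 250 bp of the summit was 64.7% (64.1 to 65.3) at the 578 found in the untreated list and 65.6% (64.7 to 66.3) at the 404 not found. The untreated list as a whole had 65.2% and the equally ranked DMSO peaks 64.7%. On chromosome 19, where SMG9, UBE2S and CHAF1A lie, 44 of 93 such peaks were found (47.3%, 36.9 to 57.9), the lowest share of the 23 chromosomes, and the highest was 11 of 12 on chromosome 22 (91.7%, 61.5 to 99.8). The part of chromosome in these losses was not tested.

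Of the untreated peaks, 40 had no DMSO overlap. At promoters lay 30 of them (75.0%, 58.8 to 87.3), and 31 overlapped a GSK126 peak (77.5%, 61.5 to 89.2). The strongest stood at the promoter of CDC25C, the mitotic phosphatase, and FAM53C, with 24 fragments (35.9 scaled, rank 310). It was followed by RAB1A, a RAB GTPase of the early secretory pathway, with 21 fragments, PDLIM5 with 20, the katanin gene KATNA1 with 17 and IPP with 18. All 5 overlapped a GSK126 peak. PDLIM5 still counted as a DMSO target gene, through another DMSO summit within 1 kb of a TSS. All untreated peaks ranked above that of CDC25C and FAM53C overlapped a DMSO peak.

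The share of peaks with an E2F motif fell with rank in both lists. A match lay within 100 bp of the summit in 54.5% of untreated peaks (51.5 to 57.6) and in 65.6% of the equally ranked DMSO peaks (62.7 to 68.5). Among the strongest 100 of each the shares were 74.0% (64.3 to 82.3) and 79.0% (69.7 to 86.5), and at ranks 751 to 1056 they were 38.6% (33.1 to 44.3) and 56.9% (51.1 to 62.5). The lists thus parted in their lower ranks. DMSO promoter peaks in the untreated list had a match more often (57.2%, 54.0 to 60.4) than those not in it (31.3%, 30.1 to 32.5). At equal DMSO strength, 89.0% of peaks with a match and 90.2% without one were found from 60 scaled fragments upward. The shares were 63.1% and 68.2% at 40 to 60, and 19.7% and 17.4% at 20 to 30. The intervals overlapped in each bin, which is no test of the difference, and its direction varied.

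**Figure D5:**
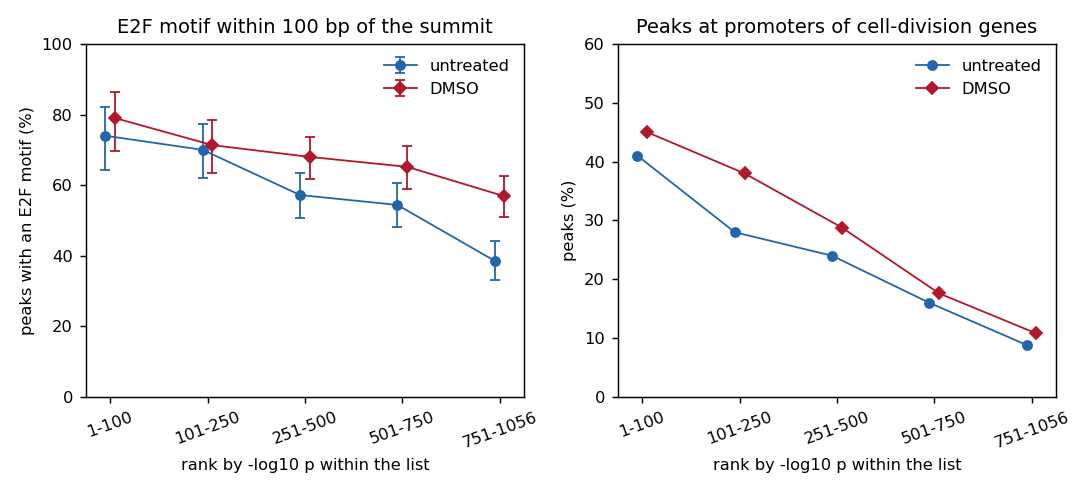
Left, share of peaks (%) with an E2F motif within 100 bp of the summit by rank within the untreated (blue) and DMSO (red) lists, with exact 95% intervals; right, share of peaks (%) at promoters of cell-division genes. The lists lie close at ranks 1 to 100 (74.0% and 79.0% with a motif) and apart at ranks 751 to 1056 (38.6% and 56.9%).

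Other promoter motifs were counted in the same windows on both strands. The CCAAT box bound by NF-Y (CCAAT) was present at 32.4% of DMSO promoter peaks in the untreated list and 20.4% of those not in it. Of windows at the TSS of lowest coordinate of each protein-coding gene, 24.8% held it. The cell-cycle homology region bound by the MuvB complex (TTTGAA) was at 11.7% and 5.56%, with 10.4% at those TSSs. Over the whole untreated list it was less frequent at the summits (11.3%) than 2 kb away from them (18.3%). The NRF1 motif (GCGCNTGCG) was at 11.7% and 7.54%, with 4.74% at those TSSs. For ETS factors (CCGGAAG) the shares were 10.8% and 9.71%, with overlapping intervals. The CCAAT box and the NRF1, ETS and SP1/KLF motifs were more frequent at the untreated summits than 2 kb away. Shares of the CCAAT box, the cell-cycle homology region, NRF1 and ETS were not compared at equal DMSO strength, with which the share of peaks found rose. Among the peaks at DNA replication genes, 26 of 34 in untreated (76.5%) and 47 of 62 in DMSO cells (75.8%) had an E2F motif, and at mitosis and spindle genes 20 of 46 (43.5%) and 38 of 91 (41.8%). Within each of these functions the intervals of the lists overlapped.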

How the data were processed

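E2F1 ChIP-seq libraries of untreated and DMSO-treated MDA-MB-231 cells were analysed, with the GSK126 library as a check. Per the study's methods and submitters' notes, the authors trimmed reads (cutadapt 4.5), aligned them to GRCh38 with Bowtie2 2.5.2 and called narrow peaks per library with MACS2 2.2.9.1. The deposited lists give the fold enrichment at the summit, a ratio over the background, and −log10 p and −log10 q of each peak. The deposited score was not used. The control library behind each list is not given in the sources used here. Because MACS2 computes fold with a pseudocount of 1 and p from a Poisson tail, the fragments and background at each summit were solved from them, within a relative error of 2e-05 for every peak, after a test on simulated data. Overlap meant at least 1 bp. TSSs came from GENCODE release 44 and sequences from hg38. A gene's level was that of its strongest summit. Median intervals are order-statistic intervals, and single ratios have exact binomial ones.

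The 25 gene lists, the naming rule and the members were chosen with earlier results of these data known. Named genes were, per list, up to 4 with the highest scaled untreated fragments and up to 4 best-ranked in DMSO without an untreated peak, the 10 strongest promoters of each kind, the 5 lowest and highest ratios, and the 5 strongest untreated peaks without DMSO overlap. Alternatives covered the promoter window, q threshold, nearest gene, ranking, number of peaks, overlap rule, scaling and motif. The GC, chromosome, calling-limit and single-gene scaling values were added after seeing the data. Python 3.11.15 with numpy 2.4.6, pandas 2.3.3, scipy 1.17.1 and pysam 0.24.0 was used.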

Additional observations from a re-analysis of the deposited data

How the results depend on the processing

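With 1 library per condition, no value has a replicate check, and depth differed between the libraries, so strength near the calling limit is poorly resolved in untreated cells. No paired analysis was possible because each group has 1 library. Of the alternatives for the main values, 19 stayed within the counting interval and 15 did not. The kept share of DMSO target genes was 15.3% when only the nearest gene counted. The untreated peaks overlapped at equal rank were 55.6% when ranked by fold, 64.0% among the strongest 500, 63.6% among the strongest 250, 53.9% with summits within 200 bp and 12.5% when 50% of both peaks had to overlap (median widths were 302 and 436 bp). The median log2 ratio was −0.46 with the authors' fold and turned to 0.012 with the background at each peak, and the cause was not tested. The E2F motif share was 45.4% untreated and 58.9% DMSO within 50 bp, and 21.5% and 26.9% with 1 more T, lower in untreated cells each time. With summits within 200 bp, 1.33%, 15.5% and 34.9% of DMSO promoter peaks at 10 to 15, 20 to 30 and 30 to 40 scaled fragments were found. The excess of cell-division genes in DMSO at equal rank was 21 to 47 genes in all settings.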
